A study of Mus musculus with 24 samples.

Results

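Promoter accessibility of the nuclear genes for oxidative phosphorylation (OXPHOS) was compared between young and aged mouse small intestinal epithelium. Genes were taken by name from the peak annotation: protein-coding genes whose symbol begins with Nduf, Uqcr, Atp5 or Cox4 to Cox8, together with Sdha, Sdhb, Sdhc, Sdhd, Cyc1 and Cycs. This gave 87 genes among 29334 with any peak in the table. Of these, 72 had a peak within 1000 bp of their transcription start site (TSS), among 14561 such genes in all, and 71 had enough counts to be tested. The 87 genes, tested or not, comprised 36 complex I subunits, 6 complex I assembly factors (Ndufaf), 4 subunits of complex II and 8 of complex III. The others were 16 genes under the complex IV prefixes, 16 under the complex V prefix and cytochrome c (Cycs). The prefixes also took in genes that are not core subunits, among them the Ndufaf genes, Cox7a2l (a factor of supercomplex assembly), Atp5s and Atp5sl. Both groups were mice of the strain C57BL/6JRj, and the labels name no transgene or treatment. Epithelial cells were released from the small intestine with EDTA and trypsin and sorted as EpCam+ and CD45-. ATAC-seq, which uses Tn5 transposase to place adapters into accessible DNA, then mapped open chromatin. The 24 sample records were the 4 lanes of 6 libraries, numbered 1, 2 and 4 within each age (n = 3 libraries per age). Young is given as 2 to 3 months and aged as 20 to 22 months in a design text whose sentences describe other assays of the study. The labels do not say that each library came from its own mouse, so the p-values measure only the spread between these libraries.

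Oxidative phosphorylation takes place in the inner mitochondrial membrane. Complex I (NADH dehydrogenase) and complex II (succinate dehydrogenase) pass electrons to ubiquinone, complex III passes them on to cytochrome c, and complex IV (cytochrome c oxidase) hands them to oxygen, while complexes I, III and IV pump protons and complex V (ATP synthase) uses the gradient to make ATP. Most subunits are encoded in the nucleus and the remainder in mitochondrial DNA, and the nuclear promoters are known targets of NRF1, the ETS factor GABP and YY1. In the intestine, stem cells at the crypt base and absorptive enterocytes on the villus both rely on mitochondrial respiration.

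Total counts in peaks were 6149680 in young 4 and 16900796 to 23935291 in the other 5 libraries, and 32.0% to 35.6% of them lay within 1000 bp of a TSS. Of 13 epithelial marker genes 11 had a promoter peak (Krt19 and Vil1 had none), whereas 0 of 14 leukocyte markers, Ptprc (CD45) included, had one. Fibroblast and muscle markers had a promoter peak in 5 of 10 genes, with a summed level of 56.8 to 63.2 promoter CPM (counts scaled to 1000000 promoter counts) in aged and 58.4 to 61.1 in young libraries. Single genes had one among 7 endothelial and 6 neuronal and glial markers. These are bulk samples, so a smaller share of cells with an open promoter and less signal in every cell cannot be told apart.

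The promoters on which the results turn are shown here as the 250 bases before the RefSeq start (GRCm38.p6), read 5′ to 3′ along the gene's strand. Atp5g1 (chr11:96075632-96075881, minus strand), Ndufs7 (chr10:80249199-80249448, plus strand) and Ndufc1 (chr3:51408956-51409205, minus strand) had the smallest p-values of all members. Cox6b2 (chr7:4753095-4753344, minus strand) held the single called peak, and Ndufaf1 (chr2:119662835-119663084, minus strand) had the lowest level per kb of peak among members with a RefSeq window. Ndufa5 (chr6:24527691-24527940, minus strand) and Ndufs6 (chr13:73328483-73328732, minus strand) show an NRF1 motif and were chosen after the values had been seen. Capitals mark matches to 9 motifs searched on both strands: that of NRF1, CCGGAAG for ETS/GABP, AANATGGC for YY1, GGGCGG for SP/KLF, CCAAT for NFY, TGACGTCA for CRE, TCAAGGTCA for ERR, CACGTG for the E-box and TATAAA for TATA.
Atp5g1: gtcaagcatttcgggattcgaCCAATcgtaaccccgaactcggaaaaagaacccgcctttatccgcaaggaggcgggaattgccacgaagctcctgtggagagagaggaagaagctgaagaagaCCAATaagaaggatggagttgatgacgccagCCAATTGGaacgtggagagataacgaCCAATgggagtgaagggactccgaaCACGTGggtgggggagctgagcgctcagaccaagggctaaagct
Ndufs7: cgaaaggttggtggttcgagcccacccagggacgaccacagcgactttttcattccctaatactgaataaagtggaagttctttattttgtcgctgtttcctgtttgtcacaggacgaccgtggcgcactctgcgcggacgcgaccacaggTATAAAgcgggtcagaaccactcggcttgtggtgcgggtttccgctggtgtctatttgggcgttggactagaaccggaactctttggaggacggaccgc
Ndufc1: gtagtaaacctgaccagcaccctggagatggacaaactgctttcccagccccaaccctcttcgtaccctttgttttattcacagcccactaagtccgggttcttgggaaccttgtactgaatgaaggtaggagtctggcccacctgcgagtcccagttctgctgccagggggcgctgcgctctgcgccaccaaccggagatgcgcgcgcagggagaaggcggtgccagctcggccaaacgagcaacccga
Cox6b2: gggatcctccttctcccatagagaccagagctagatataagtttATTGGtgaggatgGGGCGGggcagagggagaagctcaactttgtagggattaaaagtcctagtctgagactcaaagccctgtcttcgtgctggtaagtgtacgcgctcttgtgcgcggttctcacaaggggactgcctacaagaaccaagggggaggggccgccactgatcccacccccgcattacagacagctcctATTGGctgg
Ndufaf1: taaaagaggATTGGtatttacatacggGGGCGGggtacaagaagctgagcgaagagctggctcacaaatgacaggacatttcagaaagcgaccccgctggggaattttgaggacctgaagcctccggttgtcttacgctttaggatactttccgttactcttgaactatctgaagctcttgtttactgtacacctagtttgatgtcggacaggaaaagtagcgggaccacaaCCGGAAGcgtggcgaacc
Ndufa5: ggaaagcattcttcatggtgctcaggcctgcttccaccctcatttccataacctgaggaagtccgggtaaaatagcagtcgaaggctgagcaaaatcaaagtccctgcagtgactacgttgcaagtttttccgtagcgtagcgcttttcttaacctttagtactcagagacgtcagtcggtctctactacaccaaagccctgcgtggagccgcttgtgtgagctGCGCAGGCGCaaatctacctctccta
Ndufs6: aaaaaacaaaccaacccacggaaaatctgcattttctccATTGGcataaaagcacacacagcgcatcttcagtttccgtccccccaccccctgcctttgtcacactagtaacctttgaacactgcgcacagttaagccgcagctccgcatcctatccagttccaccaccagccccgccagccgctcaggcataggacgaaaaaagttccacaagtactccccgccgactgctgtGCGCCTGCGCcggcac
Atp5g1, the most accessible member, held 4 CCAAT matches on the gene's strand, at 225 to 229, 122 to 126, 91 to 95 and 65 to 69 bases before the start. The third of them overlapped a match on the other strand at 88 to 92. An E-box lay at 39 to 44. Ndufs7 held a TATA match at 94 to 99 bases before the start, and Ndufc1 held no match to any of the 9 motifs in these 250 bases. In Ndufaf1 an ETS/GABP match lay at 12 to 18 bases and in Cox6b2 a CCAAT match on the other strand at 5 to 9. The NRF1 match lay at 17 to 26 bases in Ndufa5 and at 7 to 16 in Ndufs6, where it was on the other strand. Ndufa5 has another RefSeq start, with the window chr6:24527527-24527776. Counted from it, the NRF1 match lay at 181 to 190 bases, with an SP/KLF match at 156 to 161. A match describes the letters of the window and shows neither binding nor regulation.

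Of 72 members with a RefSeq window of 300 bases (250 before and 50 after the start), 18 held an NRF1 match, 16 an ETS/GABP match and 19 a YY1 match (8 of them within the 250 bases before the start). Among the 62 of these members with a tested promoter, 22.6% held NRF1, against 10.3% of the 7742 protein-coding genes with a tested promoter and a window. ETS/GABP was found in 25.8% of members against 17.7%, and YY1 in 24.2% against 8.80%. At least 1 of these 3 motifs was present in 39 of the 62 members (62.9%), against 31.6% of the protein-coding genes. SP/KLF boxes were fewer in members, 41.9% against 66.7%, and CCAAT matches nearly equal, 41.9% against 42.1%. CRE matches were found in 4.84% against 3.44%, ERR in 3.23% against 0.271%, E-boxes in 8.06% against 11.2% and TATA in 8.06% against 9.44%. Over the windows of all 72 members, tested or not, median GC content was 57.8%, against 60.3% in the protein-coding genes with a tested promoter. The median ratio of observed to expected CpG was 0.831 against 0.726. A gene on the opposite strand began within 1000 bp upstream of 19 of the 72 members (26.4%), against 16.0% of the same protein-coding genes. Among the 62 members with a tested promoter there were 15 such genes. Examples are Atp5j, which encodes a subunit of the ATP synthase stalk and faces Gabpa, itself a subunit of GABP, and Sdhd, the membrane anchor of complex II, which faces Timm8b. These shares are descriptions of sequence, without a test. Members without a matched window included Atp5a1, Cox4i1, Cox6a2, Cox6c, Cox8c, Cyc1, Ndufa2, Ndufa4l2, Ndufaf6, Ndufb9, Ndufs1, Sdhc, Uqcrc2 and Uqcrq.

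OXPHOS promoters were more accessible than most. The mean level over the 6 libraries, given as promoter CPM per kb of peak, had a median of 114 over the 71 members, against 74.2 over all 13880 tested promoters and 85.0 over tested promoters of protein-coding genes. Of the 71, 55 (77.5%) lay above the median of all, 29 in the top 25% and 4 in the bottom 25%. Atp5g1, which encodes the membrane-ring subunit c of the ATP synthase, had the highest level at 404.5 CPM per kb, at the 99.5th percentile of all tested promoters. Next were Ndufv1, the flavoprotein that takes electrons from NADH, at 335, Atp5s at 304.8, Ndufa6 at 303.9 and Ndufs8, an iron-sulphur subunit, at 281. The lowest levels were 18.2 in Cox6a2, the heart and muscle isoform of a complex IV subunit, 26.1 in the complex I assembly factor Ndufaf1, 26.4 in Cox6c and 29.4 in Cox6b2, the testis isoform of another complex IV subunit. The 3 tested complex II promoters all lay in the top 25%, with 152.0 to 226 CPM per kb. A high level was not particular to OXPHOS genes. Of the related lists described further below, mitochondrial ribosomal proteins had a median of 96.2 and ubiquinone synthesis and carriers 97.5. Biogenesis regulators had 145.8, assembly factors outside the name rule 146.3, the tricarboxylic acid cycle list 147.7 and 4 further redox genes 222.

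**Figure D1:**
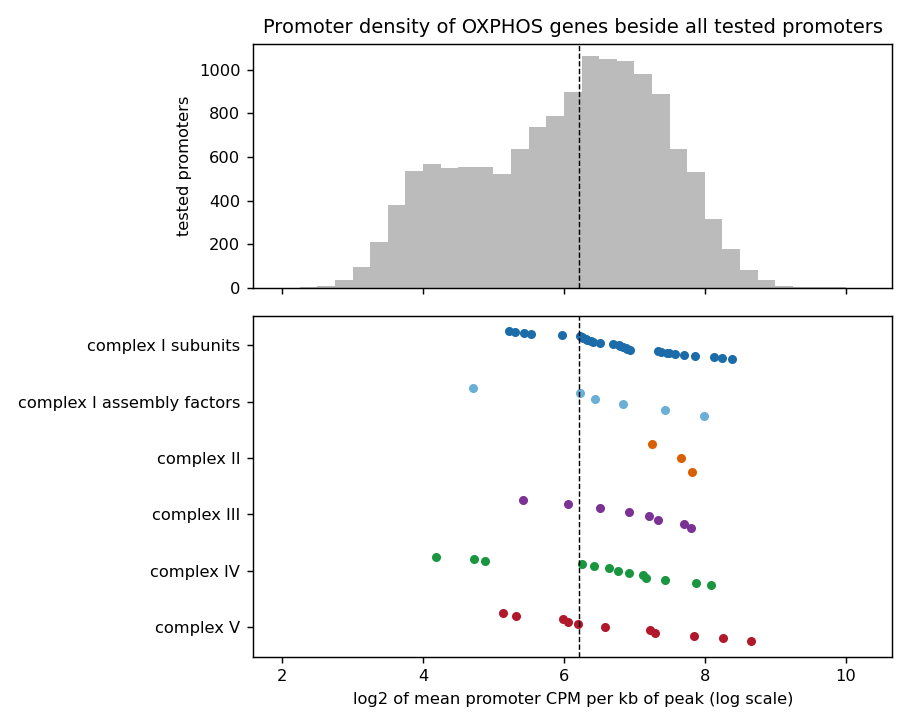
Accessibility of OXPHOS promoters beside all tested promoters. The upper panel counts the 13880 tested promoters by the log2 of their mean CPM per kb of peak, and in the lower panel each point is 1 of 71 members, by complex. The dashed line is the median of all tested promoters, 74.2 CPM per kb, and 55 of the 71 members lie to its right.

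With age, no OXPHOS promoter passed the test. When edgeR's quasi-likelihood p-values were adjusted over all promoters by the Benjamini-Hochberg method, with a threshold of 0.05, 0 of 71 members were called, where 242 of 13880 promoters were called in all (1.74%), 107 higher (0.771%) and 135 lower (0.973%) in aged. The smallest adjusted p among members was 0.367, for Atp5g1. At an unadjusted p below 0.05 the same test took 5 of the 71 members (7.04%), against 8.93% of all promoters. DESeq2 called 0 of the members as well, with 1 at an unadjusted p below 0.05. With the replicate number as a block, which pairs libraries by number, edgeR called 0 and took 8 of 71 at that unadjusted threshold. The count ran from 1 to 8 over the alternative settings. The matching share of all promoters is not given here for these settings. The log2 fold changes of aged over young ranged from -0.46 (Uqcrh) to 0.31 (Cox6a2), with the middle 50% of members between -0.11 and 0.01. The 95% interval lay wholly between -0.5 and 0.5 on the log2 scale for 65 of 71 members (91.5%), against 67.2% of all tested promoters, and between -1 and 1 for 70 (against 89.4% of all), with Uqcrh as the exception. For those 65 genes a change of promoter counts beyond 0.5 log2 units lies outside the interval of the difference.

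**Figure D2:**
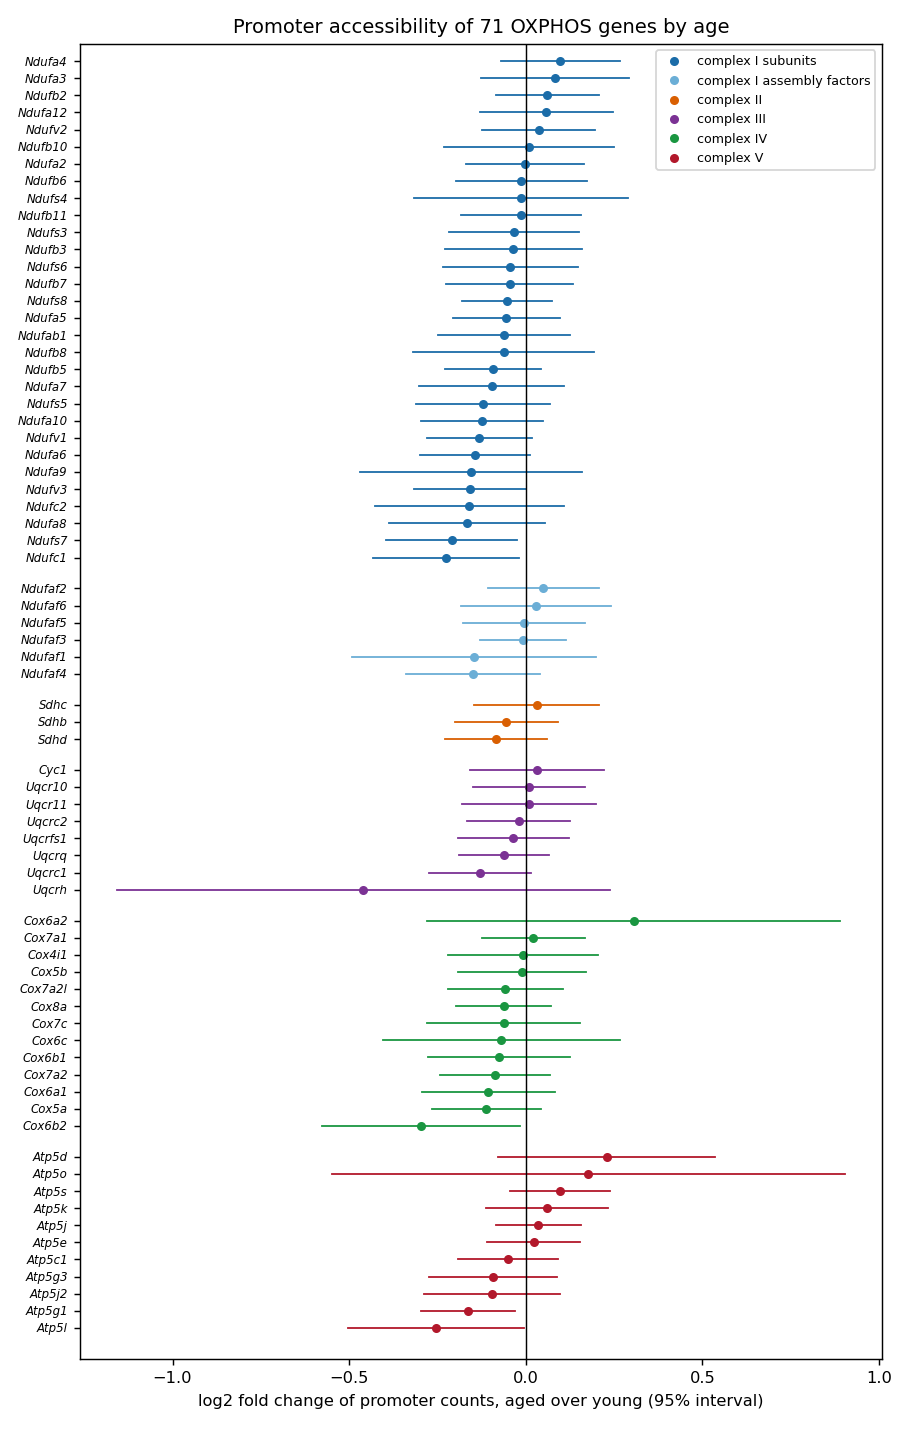
Change of promoter counts with age in 71 OXPHOS genes. Points are log2 fold changes of aged over young and lines their 95% intervals, grouped by complex and ordered by value within each. Most points lie left of 0, within 0.25 log2 units of it, and the widest intervals are those of Atp5o (-0.55 to 0.90) and Uqcrh (-1.16 to 0.24).

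Although no single promoter was called, more of the values lay below 0 than above it. Of the 71 members 51 (71.8%) had a log2 fold change below 0, against 50.6% of all tested promoters. Related mitochondrial lists, described further below, leaned the same way. Among mitochondrial ribosomal proteins 41 of 59 (69.5%) were below 0, and in the other related lists, of 4 to 29 tested promoters, 62.1% to 75% were. The median of the OXPHOS members was -0.053 (a fold of 0.964) against -0.0017 over all tested promoters. By complex the medians were -0.054 for the 30 complex I subunits, -0.0065 for the 6 assembly factors, -0.056 for complex II, -0.027 for complex III, -0.063 for complex IV and 0.023 for complex V. In complex I 24 of 30 values were below 0, in complex IV 11 of 13, and in complex V 5 of 11. Members share the same 6 libraries and are not replicates, so these counts carry no test.

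The share of all promoter counts that fell on members showed how the libraries differed. In aged 1, 2 and 4 it was 0.731%, 0.716% and 0.694%. Young 1, 2 and 4 had 0.739%, 0.734% and 0.743%. The 3 aged shares were all below the 3 young ones, with means of 0.714% ± 0.0186 (SD, n = 3) and 0.738% ± 0.00444 (SD, n = 3), a difference of -0.0248 percentage points. Aged 4 stood lowest: members' log2 deviations from their own mean had a median of -0.080 there, against 0.0016 in aged 1 and -0.029 in aged 2. In young 1, 2 and 4 these medians were 0.039, 0.0029 and 0.020. Of the 71 members, 28 had their lowest value in aged 4, and 21 had their highest and 17 their lowest in young 4, the shallowest library. Without aged 4 the difference in share was -0.0149 percentage points and the members' median log2 fold change -0.024, with 44 of 71 below 0. With all libraries thinned to the depth of young 4 that median was -0.030, with 45 of 69 tested members below 0. The summed promoter level of the epithelial markers also did not overlap between the ages, at 1483 to 1501 promoter CPM in aged and 1513 to 1537 in young libraries. Of the 11 genes in that sum 7 had a log2 fold change below 0 and 4 above. The sums overlapped for enterocyte markers (426 to 469 in aged, 429 to 449 in young), crypt markers (526 to 539 and 485 to 557) and secretory markers (140 to 174 and 151 to 173). The part of the epithelial marker difference in the members' shift was not tested.

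Although the individual differences did not pass the test, in 8 members the 3 aged libraries all lay below the 3 young ones (11.3%, against 7.02% of all promoters), and in 0 members the 3 aged libraries all lay above (against 7.01%). In aged 1, 2 and 4 Atp5g1 had 265, 256 and 249.6 promoter CPM, and young 1, 2 and 4 had 273, 274 and 331. The gap was narrow apart from young 4, with a log2 fold change of -0.16 (SE 0.065, edgeR adjusted p = 0.367) that was -0.09 without young 4. Ndufs7, an iron-sulphur subunit in the arm of complex I that passes electrons to ubiquinone, had 72.7, 66.5 and 63.2 CPM in aged and 75.8, 80.5 and 77.5 in young libraries. Its log2 fold change was -0.21 (SE 0.090, edgeR adjusted p = 0.449). Ndufc1, an accessory subunit of complex I, had 48.1, 49.4 and 48.7 CPM in aged and 54.8, 57.9 and 59.8 in young libraries, tight within each age. Its log2 fold change was -0.23 (SE 0.10, edgeR adjusted p = 0.492). The remaining 5 were Cox6b2 (log2 fold change -0.30), Atp5l, a subunit g of the ATP synthase membrane part (-0.25), the assembly factor Ndufaf4 (-0.15), the complex I subunit Ndufa10 (-0.12) and Cox5a, an early subunit in complex IV assembly (-0.11), with edgeR adjusted p-values of 0.521 to 0.780. In Ndufa10 the nearest libraries of the 2 ages were aged 2, at 86.4 CPM, and young 4, at 87.7.

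**Figure D3:**
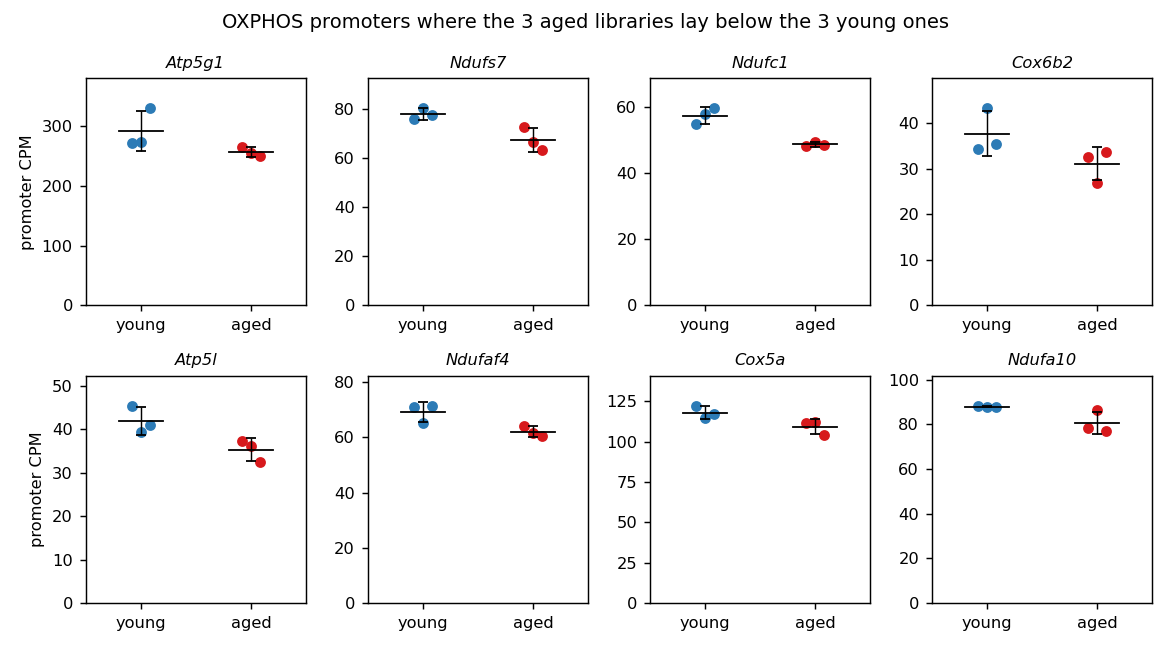
Promoter CPM by library in the 8 OXPHOS genes whose aged libraries all lay below the young ones. Points are libraries, horizontal lines means and error bars SDs (n = 3 per age), on axes that start at 0. The step between the ages is small in every panel, and in Atp5g1 young 4 lies well above the other libraries.

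Complex I carried the most members. Besides Ndufs7 and Ndufc1, the values furthest below 0 were those of the accessory subunits Ndufa8 (-0.17), Ndufc2 (-0.16) and Ndufv3 (-0.16). Ndufa4, named for complex I but now counted as a subunit of complex IV, had the smallest p above 0 in this group: 97.3, 106.6 and 98.6 CPM in aged and 100.1, 93.1 and 86.7 in young libraries, with overlap and a log2 fold change of 0.10 (SE 0.082, edgeR adjusted p = 0.846). Ndufa6, Ndufs8 and Ndufv1, all among the most accessible members, had their highest value in young 4. Ndufa6 had 205, 193 and 178 CPM in aged and 208, 191 and 250.3 in young libraries, a log2 fold change of -0.14 (SE 0.076). Ndufs8 had 225, 211 and 198 CPM in aged and 212, 219 and 231 in young libraries, with overlap (log2 fold change -0.05, SE 0.062). Ndufv1 had 196, 191 and 166 CPM in aged and 202, 188 and 227 in young libraries, a log2 fold change of -0.13 (SE 0.072) that was -0.06 without aged 4 and -0.08 without young 4. Ndufs4, the subunit whose loss in mice gives a model of Leigh syndrome, was the least accessible complex I subunit, at 37.2 CPM per kb. Its promoter values were 26.3, 25.8 and 29.3 CPM in aged and 24.5, 31.6 and 24.8 in young libraries, and they overlapped (log2 fold change -0.01, SE 0.15). Among assembly factors Ndufaf4 had 64.2, 61.5 and 60.6 CPM in aged and 70.99, 65.0 and 71.5 in young libraries, without overlap. Ndufaf1 had 15.9 to 18.2 CPM in aged and 17.7 to 19.4 in young libraries, a log2 fold change of -0.15 (SE 0.17). Ndufaf3 was the most accessible factor, at 254 CPM per kb, with a log2 fold change of -0.01 (SE 0.059), and Ndufaf2 had the smallest p above 0, at 0.05 (SE 0.076).

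Complex II, which also works in the tricarboxylic acid cycle, showed overlapping libraries in all 3 tested genes. Sdhb, the iron-sulphur subunit, had 155, 148 and 133 CPM in aged and 156, 147 and 147 in young libraries. The membrane anchors Sdhc and Sdhd had log2 fold changes of 0.03 (SE 0.086) and -0.08 (SE 0.070). In complex III, Uqcrc1, a core subunit, had 145, 137 and 130 CPM in aged and 149.6, 145 and 161 in young libraries. Its log2 fold change was -0.13 (SE 0.070, edgeR adjusted p = 0.653), and aged 1 overlapped young 2 by a small margin. Cyc1, the cytochrome that passes electrons to cytochrome c, had 69.9, 65.8 and 63.9 CPM in aged and 63.0, 68.3 and 63.3 in young libraries, a log2 fold change of 0.03 (SE 0.092). The Rieske iron-sulphur protein gene Uqcrfs1 and the core subunit Uqcrc2 had -0.03 and -0.02. Uqcrh, the hinge protein, had the lowest log2 fold change of any member and also the fewest counts of its complex. It had 4.19, 3.38 and 3.33 CPM in aged and 3.99, 4.18 and 9.12 in young libraries. Without young 4, where the peak assigned to it held 18 counts, its log2 fold change was -0.17 in place of -0.46. That peak is 110 bp wide, and the larger peak over the RefSeq start of Uqcrh (1784 bp) is assigned in the deposited annotation to its opposite-strand neighbour Lrrc41. It had 58.6, 61.4 and 53.2 CPM of all peak counts in aged and 70.3, 60.7 and 49.7 in young libraries, and a log2 fold change of -0.07 (SE 0.12).

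Complex IV has tissue isoforms, which allowed pairs to be set side by side. Cox6a1, the ubiquitous form, had 85.8 CPM per kb and Cox6a2, the muscle form, 18.2. Their log2 fold changes were -0.11 (SE 0.092) and 0.31 (SE 0.28), both with overlapping libraries. Cox6b1, the somatic form, had 109.4 CPM per kb and the testis form Cox6b2 29.4. Cox7a1, known as the heart and muscle form, had 271 CPM per kb, at the 96.5th percentile of all tested promoters, and Cox7a2, the form of most other tissues, 172. Cox7a1 had 160, 139 and 152 promoter CPM in aged and 147, 144 and 157 in young libraries, with full overlap and a log2 fold change of 0.02 (SE 0.071). Accessibility of a start site does not show that the isoform was transcribed, and RNA was not analysed here. Cox4i1 had 91.6, 89.9 and 78.6 CPM in aged and 95.5, 92.2 and 63.9 in young libraries, lowest in the shallow library young 4. Cox5a had 111, 112 and 104 CPM in aged and 122, 115 and 117 in young libraries, without overlap. Cox7a2l and Cox8a had log2 fold changes of -0.06 and -0.06 (SE 0.079 and 0.065). Cox8b, the muscle isoform, had a peak within 1000 bp with 1 to 7 counts per library and fell under the filter on low counts, and no peak was listed for Cox4i2 or Cox7b2.

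Complex V was the one group with more values above 0 than below, by 6 to 5. Of those above 0, Atp5d rests on a peak classed as another gene's promoter. Atp5o rests on a narrow peak that does not cover its RefSeq start. Atp5s, also above 0, is among the genes taken in by prefix that are not core subunits. Atp5g1 and Atp5g3 encode the same mature subunit c, and their log2 fold changes were -0.16 and -0.09 (SE 0.065 and 0.088). Atp5d, the delta subunit of the central stalk, had 30.9, 32.3 and 23.8 CPM in aged and 25.2, 25.1 and 23.8 in young libraries. Aged 1 and 2 stood above the young libraries and aged 4 among them, with a log2 fold change of 0.23 (SE 0.15, edgeR adjusted p = 0.766) that was 0.14 without aged 2 and 0.35 without aged 4. This value rests on 1 peak that the deposited annotation classes as the promoter of another gene. The peaks classed as promoter of Atp5d itself, centred 2830 and 3746 bp from the TSS used for distances, had log2 fold changes of -0.02 and -0.06 (SE 0.14 and 0.12). Atp5s had 276, 247 and 249 CPM in aged and 263, 237 and 209 in young libraries (log2 fold change 0.10, SE 0.069). Atp5j had a flat profile, with 215, 213 and 209 CPM in aged and 211, 209.98 and 199 in young libraries and a 95% interval of -0.09 to 0.15. Atp5e, the epsilon subunit of the central stalk, and Atp5c1, the gamma subunit that turns inside the catalytic head, had log2 fold changes of 0.02 and -0.05 (SE 0.064 and 0.069). Atp5l had 37.3, 36.3 and 32.4 CPM in aged and 45.5, 39.4 and 41.0 in young libraries. Its 2 peaks within 1000 bp, in the first intron and at the start, had log2 fold changes of -0.39 and -0.17, and neither was called. Atp5o, which encodes the stalk protein OSCP, had 2.88 to 4.38 CPM in aged and 2.37 to 3.88 in young libraries, from a peak 94 bp wide. The narrow peak held few counts in every library. The peak over its RefSeq start is assigned to D430001F17Rik and had a log2 fold change of -0.05 (SE 0.12).

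Single peaks gave 1 call with age as the only term, and 3 with the replicate number as a block. Members had 302 peaks at any distance, 90 of them within 1000 bp, and 270 were tested (88 and 182 within and beyond that distance). In edgeR's quasi-likelihood test over all 129588 tested peaks, 2077 were called (1.60%), of which 1393 were higher (1.07%) and 684 lower (0.528%) in aged. Among the 270 member peaks, 0 were called higher and 1 lower. At an unadjusted p below 0.05 there were 17 (6.30%), against 8.82% of all peaks. The aged libraries lay wholly above the young ones in 13 of the 270 member peaks, against 9490 of all 129588 (7.32%). They lay wholly below in 14 of the 270, against 8481 (6.54%). Beyond 1000 bp the count wholly above was 13 of 182, against 8476 of 110754 such peaks in all. Within 1000 bp it was 0 of 88, against 1014 of 18834.

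The called peak lay at the start of Cox6b2 (chr7:4752914-4753239, centred 53 bp upstream of the annotated TSS, 326 bp wide). On the scale of all peak counts, aged 1, 2 and 4 had 2.40, 2.05 and 2.04 CPM. Young 1, 2 and 4 had 4.62, 5.50 and 3.98. All 3 aged libraries were below all 3 young ones, with means of 2.17 ± 0.207 and 4.70 ± 0.761 CPM (SD, n = 3). On the log2 scale the peak differed by -1.16 (SE 0.21, 95% interval -1.59 to -0.73, edgeR adjusted p = 0.000982), a fold of 0.448. These values rest on 39, 49 and 36 raw counts in aged and 101, 111 and 25 in young libraries. A neighbouring peak centred 640 bp downstream of the start, 844 bp wide and annotated to the transcript end of the gene Fam71e2, differed little: 9.12, 6.98 and 8.92 CPM in aged and 8.01, 8.91 and 7.17 in young libraries (log2 fold change 0.02, SE 0.16). Because this larger peak also counts within 1000 bp, the promoter sum of Cox6b2 had a log2 fold change of -0.30 (SE 0.14, edgeR adjusted p = 0.521), which was -0.16 without young 2 and -0.20 without aged 2. With peaks within 500 bp only, the sum was -1.14 (edgeR adjusted p = 0.0023), and it was called. With all libraries thinned to the depth of young 4, the peak had a log2 fold change of -1.0 and an edgeR adjusted p of 0.113.

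The intergenic peak centred 3654 bp downstream of the Cox6b2 start behaved differently. Here aged 1, 2 and 4 had 11.2, 3.97 and 8.52 CPM, while young 1, 2 and 4 had 10.6, 2.18 and 3.66. Aged 1, aged 4 and young 1 were high and the other 3 libraries low, and the log2 fold change was 0.40 (SE 0.76, edgeR adjusted p = 0.972). Within each replicate number the aged library was the higher one, and with the number as a block the log2 fold change was 0.53 (SE 0.16, edgeR adjusted p = 0.0488). With the block a further peak, at -8980 bp from the start of Ndufs4, was also called (log2 fold change -1.34, edgeR adjusted p = 0.0266). It had 9, 9 and 10 raw counts in aged and 17, 33 and 8 in young libraries, and without the block a log2 fold change of -1.30 and an edgeR adjusted p of 0.126.

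**Figure D4:**
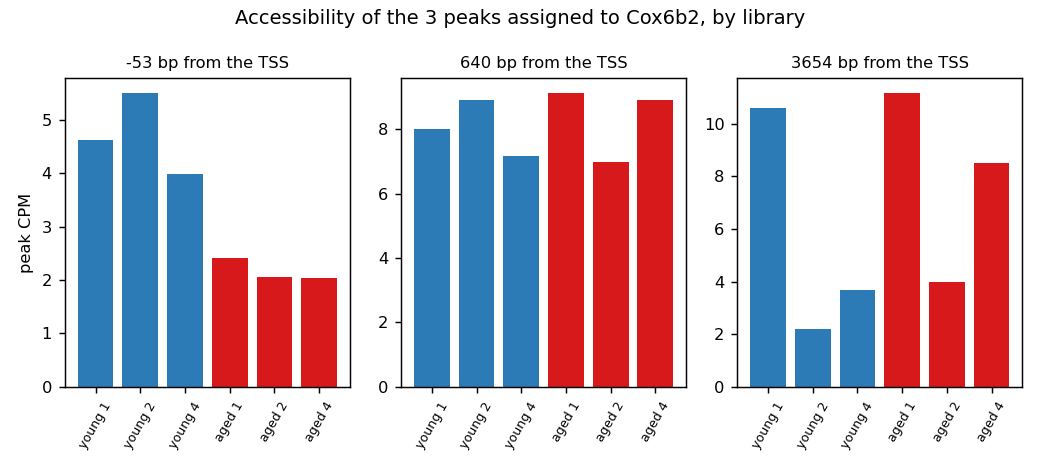
CPM of all peak counts in the 3 peaks assigned to Cox6b2, by library, with young in blue and aged in red and axes that start at 0. At 53 bp upstream of the TSS the 3 aged bars (2.04 to 2.40) are below the 3 young bars (3.98 to 5.50), at 640 bp the ages overlap, and at 3654 bp young 1, aged 1 and aged 4 are high.

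Of the 87 genes, 15 had no peak within 1000 bp assigned to them, among them the catalytic subunits Atp5a1 and Atp5b of the ATP synthase, the flavoprotein Sdha of complex II, Cycs and the complex I core subunit Ndufs1. Others were Atp5f1, Atp5g2, Atp5sl, Cox7b, Cox8c, Ndufa11, Ndufa4l2, Ndufb4 and Ndufb9. For 9 of the 15 a peak of the table overlapped the RefSeq promoter window, and 6 of these peaks were assigned to another gene. The peak over the start of Cycs, listed under the antisense gene 5430402O13Rik, had 95.5, 79.7 and 79.6 CPM of all peak counts in aged and 115, 81.4 and 80.9 in young libraries. Young 1 was highest and the ages otherwise close (log2 fold change -0.13, SE 0.12). The shared peak over Sdha and Ccdc127 had a log2 fold change of 0.03 (SE 0.13), that of Atp5b, listed under Snord59a, -0.05 (SE 0.11) and that of Atp5g2, listed under Mir688, -0.12 (SE 0.12). None of the 9 was called, with log2 fold changes of -0.14 to 0.03 and edgeR adjusted p-values of 0.872 to 0.997. In divergent or overlapping genes such a peak cannot be divided between them.

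Genes that work beside the respiratory chain were read off the same promoter fit, in which 1.74% of all promoters were called (0.771% higher and 0.973% lower in aged). Of 59 tested mitochondrial ribosomal proteins 1 was called higher in aged and 0 lower, with a list median of -0.043. Mrps5, of the small mitochondrial ribosomal subunit, had 15.4, 13.0 and 13.0 CPM in aged and 3.86, 5.82 and 11.1 in young libraries. The ages did not overlap, though young 4 came near, and the log2 fold change was 1.22 (SE 0.27, edgeR adjusted p = 0.0108). It was not called without young 1 or without young 2. Mrpl27, of the large subunit, had a log2 fold change of -0.32 (SE 0.10, edgeR adjusted p = 0.172), and with the replicate number as a block -0.31 (edgeR adjusted p = 0.0426). In the other 5 lists 0 promoters were called. These were 29 assembly factors outside the name rule (median -0.021), 11 regulators of mitochondrial biogenesis (-0.0044), 11 genes of the tricarboxylic acid cycle and pyruvate dehydrogenase (-0.041), 14 of ubiquinone synthesis and carriers (-0.017) and 4 further mitochondrial redox genes (-0.048). The smallest p in 4 of these lists belonged to the complex I assembly factor Tmem126a (log2 fold change 0.19, edgeR adjusted p = 0.441), the mitochondrial RNA polymerase Polrmt (0.13, 0.767), Coq4 of ubiquinone synthesis (-0.23, 0.683) and the electron transfer flavoprotein Etfa (-0.12, 0.635). At an unadjusted p below 0.05 the same test took 1 assembly factor, Tmem126a (3.45% of its list), and 0 promoters of the other 4 lists. Of the mitochondrial ribosomal proteins it took 5 (8.47%), against 8.93% of all promoters.

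The shift of the OXPHOS median was small beside the intervals of single genes. It kept its sign in each of 17 alternative settings of the promoter fit. These settings reuse the same libraries, so the kept sign is not independent support for a shift. The plot of medians by setting shows that the value was nearest 0 without aged 4 and furthest from it without aged 1.

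**Figure D5:**
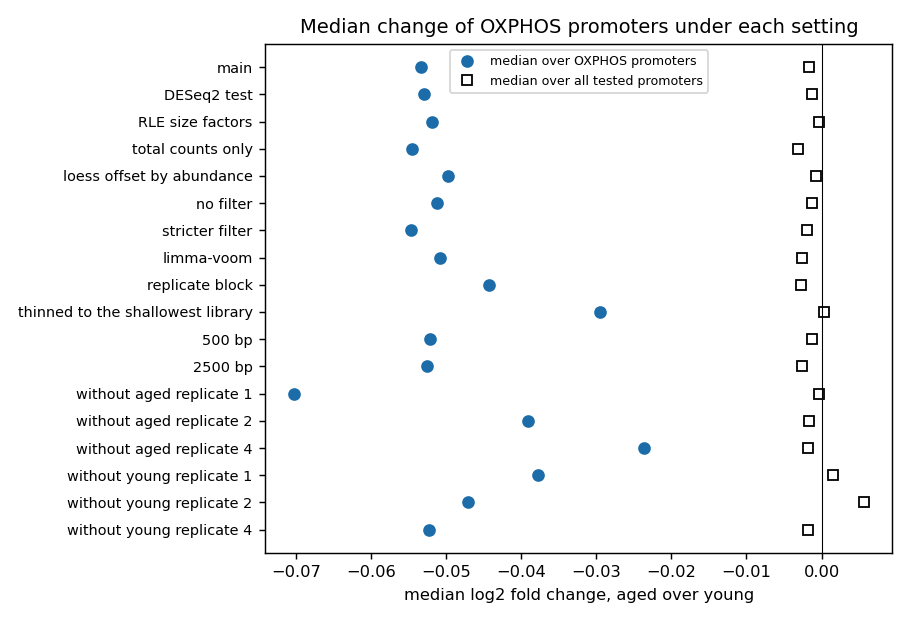
Median log2 fold change of aged over young under each setting of the promoter fit. Filled circles are medians over the tested OXPHOS promoters and open squares medians over all tested promoters. The circles lie between -0.070 and -0.024 in every setting, and the squares between -0.0032 and 0.0057.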

How the data were processed

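ATAC-seq was analysed from 6 libraries of sorted small intestinal epithelium, 3 per age. The deposited table holds raw counts per consensus peak for 150646 peaks, which the authors did not normalise, and each library's 4 lanes share 1 column. The submitters' processing notes name GRCm38 as the build. The tools named there are, for alignment and read handling, BWA 0.7.17-r1188, Trim Galore 0.6.4, FastQC 0.11.9, Picard 2.23.1 and SAMtools 1.10. For peaks and counts they are MACS2 2.2.7.1, bedtools 2.29.2 and featureCounts 2.0.1. For summaries they are MultiQC 1.9, deepTools 3.4.3 and R 3.6.2. Peak-caller settings, any Tn5 shift and whether reads or fragments were counted: not given in the sources used here. Each peak's class, nearest gene and distance to that TSS come from a companion deposited annotation.

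Counts were summed per gene over peaks within 1000 bp of the TSS, or kept per peak, filtered with filterByExpr, scaled by TMM and compared with edgeR 4.0.16 (quasi-likelihood, robust, age as the only term, R 4.3.3) over all promoters or peaks, with Benjamini-Hochberg adjustment. The threshold was an adjusted p of 0.05. SEs are those implied by the test statistic. Promoter CPM are scaled to promoter counts and peak CPM to all peak counts. Alternatives used DESeq2 1.42.0, limma-voom (limma 3.58.1), other scalings, filters and distances, thinning to the shallowest library, a replicate block and leaving out each library. Scripts were tested on simulated counts. The members and lists were chosen with earlier results of these data known.

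Depth ranged from 6149680 to 23935291 counts (median per peak 13 to 49). The chi-square per peak between libraries was 1.64 to 3.81, so no pair was within sampling noise. The replicate numbers 1, 2 and 4 occur in both ages. Within an age, deviations from the mean correlated with those of the same number in the other age at 0.236, 0.182 and 0.123, all above 0.1, and the numbers were taken to pair the libraries, though the labels do not say what they mark. The main test kept age as its only term, so calls given without mention of the block leave this pairing out. With the block 464 promoters were called in all, against 242, and 3 member peaks, against 1.

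Members named were, in each complex, those with the smallest p in each direction and with the highest and lowest CPM per kb, the isoform sets, the Sdh genes, Cyc1 and Cycs, and every called member peak. Other genes named were chosen after their values had been seen. In related lists up to 2 genes of smallest p were taken. RefSeq promoter windows (GRCm38.p6) were matched by symbol or synonym for 72 of 87 members, 3 of them by synonym. No genome was used. Some results are not reported here.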

Additional observations from a re-analysis of the deposited data

How the results depend on the processing

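The members' median log2 fold change stayed below 0 in all 17 alternatives, between -0.070 and -0.024, with 44 to 57 members below 0, and it lay nearest 0 without aged replicate 4. Of 486 alternative values of 29 results, 460 kept their direction and side of the threshold, and 24 were sign changes of uncalled values in 10 results, the widest being Ndufs4 (from -0.01 to 0.14 without young 2) and Atp5o (from 0.18 to -0.06 without young 1). The number of called OXPHOS promoters was 0, and 1 with peaks within 500 bp (Cox6b2, for which the peak at 640 bp is then left out by construction). Called member peaks numbered 1, against 0 after thinning to the shallowest library, where the Cox6b2 peak had -1.0 and an edgeR adjusted p of 0.113. Over its 15 alternatives this peak was called in 14, with -1.24 to -1.0 and adjusted p from 1.23e-05 to 0.113. Leaving out 1 library gave 1 to 2 called member peaks: without aged 2 a peak 7567 bp downstream of Atp5g2 was added (0.95, edgeR adjusted p = 0.0337), and without young 1 the Ndufs4 peak (-1.61, adjusted p = 0.0435). Called promoters of related lists numbered 1, and 0 to 1 when 1 library was left out, with Mrps5 lost without young 1 and without young 2. With the replicate block, which pairs libraries by number, 3 member peaks and 2 promoters of related lists were called, all promoters called numbered 464 against 242, and 0 OXPHOS promoters were called (smallest edgeR adjusted p 0.110). The block changed no other call of members or related lists. All promoters called numbered 134 after thinning and 161 without young 2. The causes were not tested. The young 4 library, at 6149680 counts, limits the precision of weak peaks.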

Other observations

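Among member peaks beyond 1000 bp the strongest uncalled differences were small peaks. The peak centred 7567 bp downstream of the start of Atp5g2, which encodes a further precursor of ATP synthase subunit c, is an example. On the scale of all peak counts, aged 1, 2 and 4 had 3.57, 2.76 and 4.77 CPM there, while young 1, 2 and 4 had 2.38, 2.13 and 1.75. All aged libraries were above all young ones, and the log2 fold change was 0.76 (SE 0.24, edgeR adjusted p = 0.134). Members with a gene starting on the opposite strand within 1000 bp upstream had a median promoter level of 148 CPM per kb (n = 15) and a median log2 fold change of -0.035, and the 47 without one had 114 CPM per kb and -0.063. Tested members with an NRF1 match in their window had a median log2 fold change of -0.089 (n = 14), and those without had -0.055. For ETS/GABP the medians were -0.055 with and -0.060 without a match, and for YY1 -0.053 and -0.058. These are descriptions without a test.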
